A study of Mus musculus with 6 samples.

Results

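Ezr, Rdx, Msn, Slc9a3r1, Eps8, Espn, Pls3, Pls1, Vil1 and Myo1a encode proteins that build, bundle or anchor the actin core of stereocilia and microvilli. These 10 genes were chosen by name from the 24346 gene rows of the table for the function of their proteins, with earlier results of these data known. Of them, 7 had a mean of at least 1 FPKM (a fragment count corrected for gene length and for the size of the library) over the 6 libraries and were tested among 12848 genes, while Pls1, Vil1 and Myo1a lay under that limit.

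A microvillus is a finger of plasma membrane around a bundle of parallel actin filaments. Bundling proteins pack the filaments, capping and elongation factors set their length at the tip, and the ezrin, radixin and moesin proteins (the ERM family) tie the filaments to the membrane at the sides. The stereocilia of the epididymis are very long, branched microvilli on the principal cells, the absorptive and secretory epithelial cells of the duct. They share their name with the graded actin protrusions of hair cells in the inner ear.

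Messenger RNA was sequenced from the IS-caput epididymis, the initial segment and caput at the proximal end of the duct. Mice were wild-type and 12 weeks old. One group had an intraperitoneal injection of busulfan, a DNA-alkylating drug that depletes testicular germ cells, and the other of DMSO, the solvent. Each group had 3 libraries. The sources used here give no dose, strain or time from injection to collection. Nothing in the labels ties each library to a separate mouse, so p-values measure only the spread between these libraries, part of which may be technical.

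The tissue label was checked on genes named after their values were seen. Gpx5, a secreted glutathione peroxidase of the caput, lay between 27024 and 30555 FPKM in busulfan libraries and between 34536 and 35704 FPKM in DMSO libraries. The epididymal lipocalin gene Lcn5 went the other way, with 7718 to 13090 FPKM in busulfan libraries and 4297 to 7312 FPKM in DMSO libraries. The epithelial adhesion gene Epcam lay between 208 and 215 FPKM in busulfan libraries and between 232 and 239.8 FPKM in DMSO libraries. Whether the groups held equal shares of initial segment and caput was not tested. Summed FPKM was 625087 to 666662 per busulfan library and 707219 to 732495 per DMSO library. The depth implied by the value of a single fragment was roughly 11400000 to 13000000 fragments in busulfan libraries and 12300000 to 13400000 fragments in DMSO libraries. Of the 12848 tested genes, 2668 were higher and 2833 lower in busulfan libraries by limma at an adjusted p under 0.05. Rescaling the libraries to equal totals gave 4584 higher and 1588 lower, with the median of all genes moved to 0.14 on the log2 scale, against -0.0034 as deposited.

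The promoters of Ezr, Espn and Pls3 are shown first, since these genes had the largest changes among the 10. Each line gives 250 bases before and 50 bases after a transcription start from RefSeq (GRCm38.p6, the assembly also called mm10), 5′ to 3′ on the gene's strand. Capitals mark matches, on either strand, to CCGGAAG (an ETS factor motif), TGANTCA (an AP-1 motif) or GGGCGG (a GC box).
Ezr, chr17:6782731-6783030, minus strand: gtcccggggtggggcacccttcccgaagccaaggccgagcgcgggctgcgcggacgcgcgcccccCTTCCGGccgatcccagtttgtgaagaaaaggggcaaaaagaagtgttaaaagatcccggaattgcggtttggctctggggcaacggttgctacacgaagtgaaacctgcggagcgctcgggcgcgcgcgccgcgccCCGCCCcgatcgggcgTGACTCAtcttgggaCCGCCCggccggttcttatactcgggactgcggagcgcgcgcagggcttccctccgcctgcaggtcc
Espn, chr4:152152340-152152639, minus strand: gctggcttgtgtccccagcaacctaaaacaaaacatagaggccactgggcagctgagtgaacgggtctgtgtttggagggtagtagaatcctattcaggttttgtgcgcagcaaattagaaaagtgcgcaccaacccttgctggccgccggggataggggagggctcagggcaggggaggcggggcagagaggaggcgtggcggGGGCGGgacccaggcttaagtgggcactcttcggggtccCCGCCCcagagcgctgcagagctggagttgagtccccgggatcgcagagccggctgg
Pls3, chrX:75875133-75875432, minus strand: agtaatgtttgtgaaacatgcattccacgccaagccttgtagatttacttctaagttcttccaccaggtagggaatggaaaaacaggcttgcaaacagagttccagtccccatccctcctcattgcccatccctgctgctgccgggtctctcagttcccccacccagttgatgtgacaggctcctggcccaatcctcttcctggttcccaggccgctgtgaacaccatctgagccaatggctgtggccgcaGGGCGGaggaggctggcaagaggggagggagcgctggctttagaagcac
The Ezr window held 1 CCGGAAG, 1 TGANTCA and 2 GGGCGG, the Espn window 2 GGGCGG and the Pls3 window 1 GGGCGG. RefSeq lists 3 windows each for Espn and Pls3, of which the first is shown. Among 14 windows of 9 of the genes, 2 held CCGGAAG, 1 TGANTCA, 9 GGGCGG, 0 TATAAA and 1 a CArG box, the motif of serum response factor. Of all 32851 windows of the same length, 8.86% held CCGGAAG, 7.81% TGANTCA, 35.7% GGGCGG, 13.6% TATAAA and 1.63% a CArG box. The Pls3 window shown overlaps another Pls3 window, and both hold the same GC box, which is counted in each. The median share of G and C bases over all windows was 52.7%. It was 68% in the Ezr window, 62.7% in the Espn window and 56% in the Pls3 window shown. The 14 windows ran from 40.3% to 69%. The shares of windows with a GC box are thus not matched for base content. A match describes letters only, and the files hold no measure of factor binding.

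By levels in FPKM, Pls3 was the most abundant of the 10 genes in busulfan libraries, followed by Ezr, Espn, Slc9a3r1, Rdx, Msn, Eps8, Vil1, Pls1 and Myo1a. In that order, Vil1 and Pls1 overlapped between neighbours and the other genes above them did not. In DMSO libraries Ezr came first, followed by Pls3, Slc9a3r1, Espn, Rdx, Msn, Eps8, Vil1, Pls1 and Myo1a. There Ezr overlapped with Pls3, Espn with Rdx, and Vil1 with Pls1. Among all gene rows Pls3 ranked 189 by level in busulfan libraries and 291 in DMSO libraries, and Ezr ranked 395 in busulfan libraries and 267 in DMSO libraries.

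**Figure D1:**
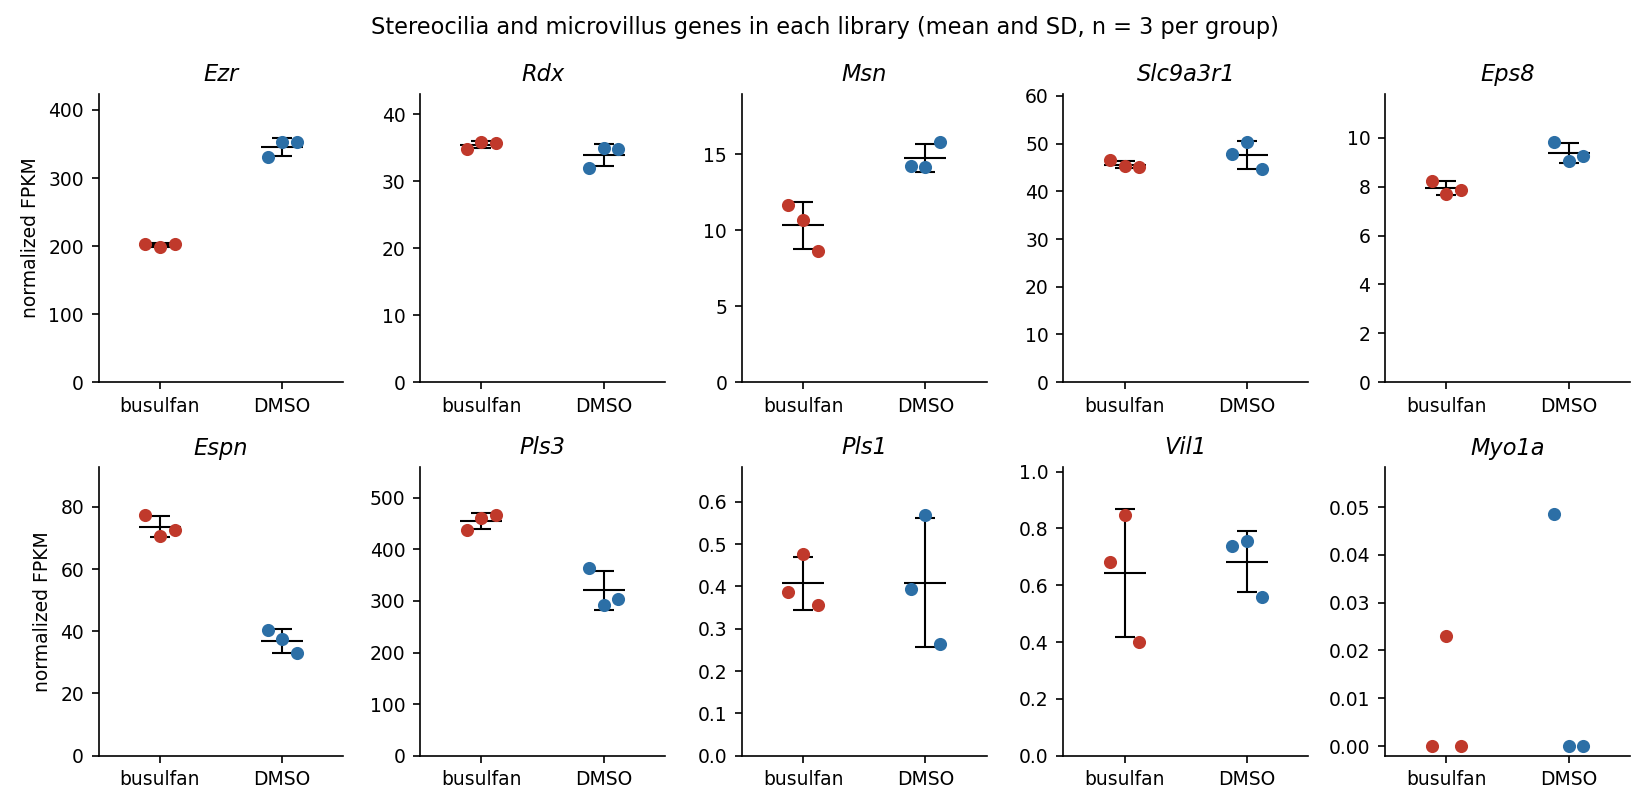
Normalized FPKM of the 10 genes in each library, busulfan at left and DMSO at right in each panel. Points are libraries, and the bar and whiskers are the mean and SD (n = 3); Myo1a, at 0 in 4 libraries, has points only. Busulfan libraries lie below DMSO libraries for Ezr, Msn and Eps8 and above them for Espn and Pls3.

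Of the 7 tested genes, 2 rose and 3 fell in busulfan libraries, against 20.8% of all tested genes that rose and 22.1% that fell, or 42.8% in either direction (limma, Benjamini-Hochberg over all genes tested). The values of busulfan and DMSO libraries did not overlap in 5 of the 7, against 54.6% of all tested genes. The 10 genes were chosen with earlier results of these data known, and the 7 had passed a filter on level. These counts therefore describe the 7 and do not test the 10 genes as a set. Their median log2 change on the log2(FPKM + 1) scale was -0.06, and their median absolute change was 0.48, against 0.20 for all tested genes. The added 1 FPKM shrinks changes of low genes. The lowest of the 7, Eps8, had a mean of 7.94 FPKM in busulfan libraries, while tested genes began at a mean of 1 FPKM. These medians, and the shares of genes with larger changes given below, are therefore not matched for level. In bulk tissue, fewer cells of a type and less RNA per cell cannot be told apart.

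Ezr encodes ezrin, the ERM linker of epithelial microvilli, on chromosome 17 (6738041 to 6782784, minus strand, GRCm38). Its level was 204, 198 and 204 FPKM in busulfan libraries 1 to 3, against 331, 354 and 353 FPKM in DMSO libraries 1 to 3. Every busulfan library lay below every DMSO library, and the 3 busulfan libraries lay close together. The means were 202 ± 3.23 FPKM in busulfan libraries and 346 ± 13.0 FPKM in DMSO libraries (SD, n = 3 each), so that busulfan libraries held 58.3% of the DMSO level. The log2 change was -0.77 (SE 0.048, 95% interval -0.89 to -0.66, limma adjusted p = 8.5e-06). Of all tested genes, 8.23% had a larger absolute change. The exons of Ezr share 4 of 3290 bases with those of Sytl3 on the opposite strand, a gene at 1.92 to 3.07 FPKM in busulfan libraries and 4.56 to 5.70 FPKM in DMSO libraries.

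Rdx encodes radixin, the ERM paralog that hair cell stereocilia and liver canaliculi depend on in mice, on chromosome 9 (52047173 to 52088735, plus strand). It had 34.8, 35.9 and 35.7 FPKM in busulfan libraries, against 32.0, 35.03 and 34.9 FPKM in DMSO libraries. The groups overlapped. The log2 change was 0.06 with a 95% interval of -0.06 to 0.18 and did not pass the test (limma adjusted p = 0.374), although it did after quantile normalization (0.16, adjusted p = 0.0483) and at equal library totals (0.22, adjusted p = 0.0171).

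Msn encodes moesin, the ERM paralog that predominates in endothelial cells and leukocytes, on chromosome X (96096042 to 96168552, plus strand). It had 11.6, 10.7 and 8.66 FPKM in busulfan libraries, against 14.2, 14.2 and 15.8 FPKM in DMSO libraries. The groups did not overlap, with busulfan library 3 the lowest. Msn fell to 10.3 ± 1.52 FPKM in busulfan libraries, against 14.7 ± 0.941 FPKM in DMSO libraries (log2 change -0.48, SE 0.10, 95% interval -0.72 to -0.25, limma adjusted p = 0.00588).

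Of 13 endothelial markers tested, 0 were higher and 8 lower in busulfan libraries, with a median log2 change of -0.47, and their summed level was 89.3 to 103 FPKM in busulfan libraries and 129 to 143 FPKM in DMSO libraries. The endothelial junction gene Pecam1, named for its lineage after its values were seen, had 9.47, 7.18 and 6.34 FPKM in busulfan libraries, against 12.2, 12.9 and 12.6 FPKM in DMSO libraries. Leukocyte markers were 1 higher and 2 lower of 11 tested (median -0.17; 1 higher and 0 lower at equal library totals), with sums of 93.6 to 126 FPKM in busulfan libraries and 108 to 118 FPKM in DMSO libraries. No marker of either list was at 0 in all libraries. The part of these cell types in the change of Msn was not tested.

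The ERM family summed to 250.03, 245 and 248 FPKM in busulfan libraries, against 377, 403 and 404 FPKM in DMSO libraries. Ezr made up 81.5% ± 0.587 of that sum in busulfan libraries and 87.7% ± 0.175 in DMSO libraries, and Rdx 14.3% ± 0.383 in busulfan libraries and 8.60% ± 0.105 in DMSO libraries (SD, n = 3 each). Msn made up 4.17% ± 0.605 in busulfan libraries and 3.74% ± 0.203 in DMSO libraries. Ezr was thus the main ERM transcript in both groups, with a smaller share in busulfan libraries.

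Ratios within a library do not depend on how the library was scaled, apart from the 1 FPKM added to each level for the log2 differences. The ratio of Rdx to Ezr was 0.176 ± 0.00522 in busulfan libraries and 0.0982 ± 0.00122 in DMSO libraries, a log2 difference of 0.84 with no overlap (exact two-sided permutation p = 0.1, the smallest that 3 against 3 libraries allow, 0.133 adjusted over the 4 ratios). Msn to Rdx was 0.291 ± 0.0460 in busulfan libraries and 0.434 ± 0.0265 in DMSO libraries, also without overlap (log2 difference -0.55, exact permutation p = 0.1, adjusted 0.133). Msn to Ezr overlapped, at 0.0512 ± 0.00769 in busulfan libraries and 0.0426 ± 0.00239 in DMSO libraries (log2 difference 0.29, exact permutation p = 0.2, adjusted 0.2). None of the ratios could pass 0.05 in this design.

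**Figure D2:**
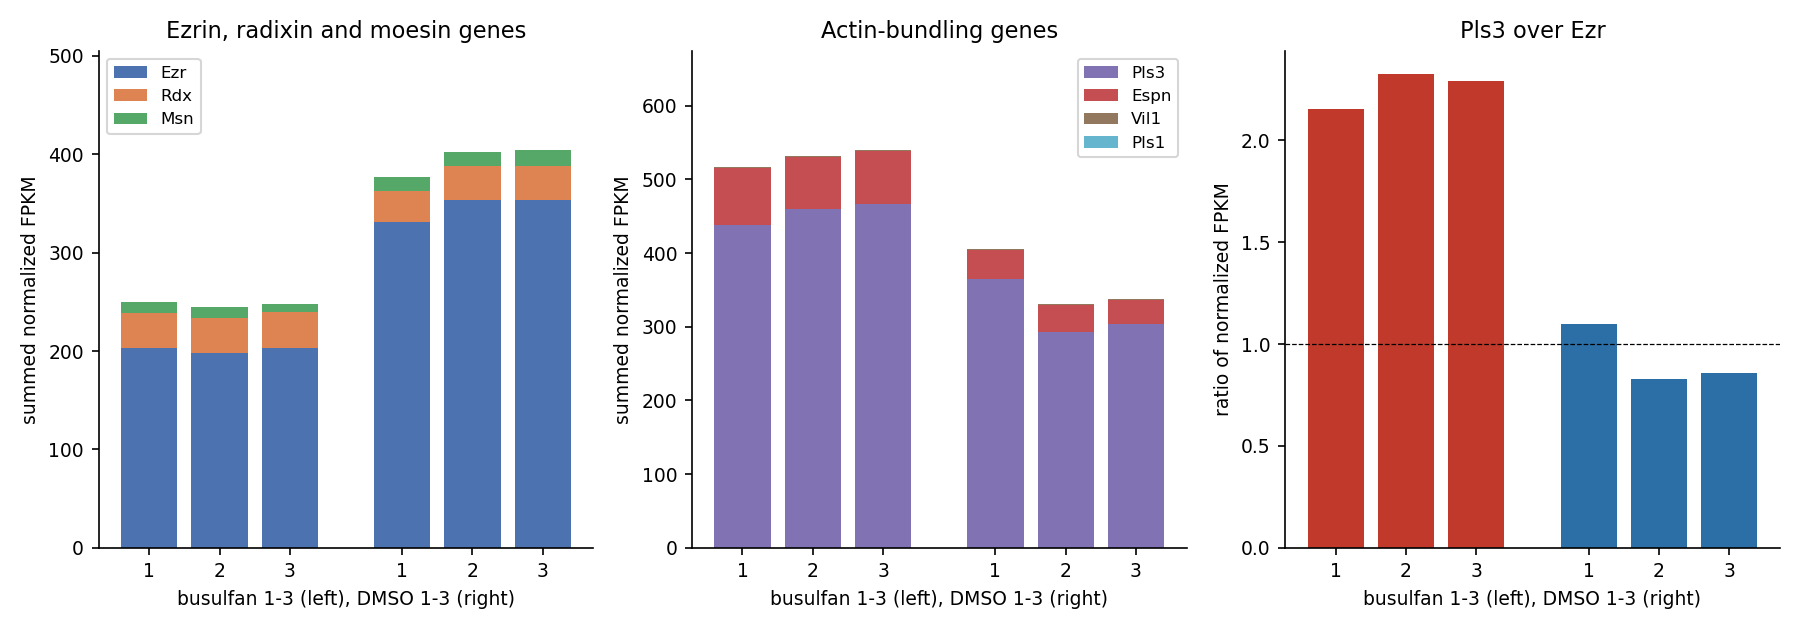
Stacked FPKM per library of the ERM genes and of the actin-bundling genes Pls3, Espn, Vil1 and Pls1, busulfan libraries at left and DMSO libraries at right. The ERM sum is 245 to 250.03 FPKM in busulfan libraries and 377 to 404 FPKM in DMSO libraries, the bundler sum 517 to 539.8 FPKM in busulfan libraries and 331 to 406 FPKM in DMSO libraries; Pls1 and Vil1 are too low to be seen. Bars at the right give the ratio of Pls3 to Ezr, 2.15 to 2.32 in busulfan libraries and 0.828 to 1.10 in DMSO libraries.

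Slc9a3r1 encodes NHERF1, the PDZ scaffold that joins ezrin to membrane channels and transporters, on chromosome 11 (115163341 to 115181181, plus strand). It had 46.5, 45.3 and 45.1 FPKM in busulfan libraries, against 47.8, 50.4 and 44.6 FPKM in DMSO libraries. The groups overlapped, and the log2 change of -0.06 had a 95% interval of -0.19 to 0.07 (limma adjusted p = 0.430). Its sign turned at 2 of the other scalings, without passing the test.

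Proteins that ERM linkers and NHERF1 bind, or that control them, were counted next. Of 18 tested genes, 1 was higher, 9 lower and 8 not called, with a median log2 change of -0.24. Cftr, the apical chloride channel that binds NHERF1, fell to 4.08 ± 0.552 FPKM in busulfan libraries, against 14.1 ± 1.39 FPKM in DMSO libraries (log2 change -1.57, limma adjusted p = 9.96e-06). Pdpn, the membrane glycoprotein podoplanin that binds ezrin, fell to 18.2 ± 0.708 FPKM in busulfan libraries, against 40.1 ± 1.69 FPKM in DMSO libraries (log2 change -1.10). Podxl, the sialomucin podocalyxin, fell to 5.81 ± 0.972 FPKM in busulfan libraries, against 11.2 ± 0.742 FPKM in DMSO libraries (log2 change -0.85). Icam2, an adhesion molecule bound by ERM proteins, fell to 1.82 ± 0.169 FPKM in busulfan libraries, against 3.45 ± 0.2997 FPKM in DMSO libraries (log2 change -0.66). Pdpn, Podxl and Icam2 are also known from endothelium, of whose 13 markers 8 fell as given above, and that part was not tested. The 1 gene that rose was the microvillar PDZ scaffold Pdzk1, and the NHERF1 paralog Slc9a3r2 was among those that fell, both named after their values were seen. Pdzk1 had 300.4 ± 5.85 FPKM in busulfan libraries and 231 ± 6.15 FPKM in DMSO libraries, and Slc9a3r2 8.84 ± 1.67 FPKM in busulfan libraries and 14.4 ± 0.190 FPKM in DMSO libraries.

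Eps8 encodes a capping and bundling protein that sits at the tips of microvilli and stereocilia, on chromosome 6 (137477245 to 137654876, minus strand). It had 8.25, 7.69 and 7.89 FPKM in busulfan libraries, against 9.85, 9.05 and 9.26 FPKM in DMSO libraries. The groups did not overlap, but the difference was small. Eps8 fell to 7.94 ± 0.287 FPKM in busulfan libraries, against 9.39 ± 0.413 FPKM in DMSO libraries (log2 change -0.22, SE 0.063, 95% interval -0.36 to -0.07, limma adjusted p = 0.0243). The call was lost at equal library totals (-0.07, adjusted p = 0.418) and without busulfan replicate 2 (adjusted p = 0.0884), busulfan replicate 3 (0.0578), DMSO replicate 1 (0.0728) or DMSO replicate 3 (0.0531).

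Among relatives and partners of Eps8, 1 was higher, 5 lower and 6 not called of 12 tested (median log2 change -0.10), while equal library totals gave 3 higher and 2 lower and quantile normalization 2 higher and 4 lower. Baiap2 (IRSp53), which recruits Eps8 to curved membrane, rose to 48.9 ± 1.69 FPKM in busulfan libraries, against 29.6 ± 1.89 FPKM in DMSO libraries (log2 change 0.71, limma adjusted p = 4.72e-05). Abi2, an adaptor of the actin-nucleating WAVE complex, fell to 5.42 ± 0.370 FPKM in busulfan libraries, against 8.65 ± 0.651 FPKM in DMSO libraries. Wasl, which encodes the Arp2/3 activator N-WASP, fell to 20.6 ± 0.511 FPKM in busulfan libraries, against 26.1 ± 1.51 FPKM in DMSO libraries. Baiap2l1, a relative of Baiap2, had 4.91 ± 0.550 FPKM in busulfan libraries and 6.44 ± 0.817 FPKM in DMSO libraries, and its call was lost under 6 alternatives, among them equal library totals (adjusted p = 0.141). Without busulfan replicate 2 or DMSO replicate 1, 3 of the list were lower.

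Espn encodes espin, the bundler of parallel actin filaments whose loss in mice shortens hair cell stereocilia, on chromosome 4 (152120331 to 152152371, minus strand). It had 77.3, 70.8 and 72.6 FPKM in busulfan libraries, against 40.4, 37.5 and 32.9 FPKM in DMSO libraries. The lowest busulfan library lay well above the highest DMSO library. Espn rose to 73.6 ± 3.40 FPKM in busulfan libraries, against 36.9 ± 3.78 FPKM in DMSO libraries, 1.99-fold (log2 change 0.98, SE 0.077, 95% interval 0.80 to 1.16, limma adjusted p = 3.26e-05). Its change was the largest of the 7 tested genes, and 5.04% of all tested genes changed more. GENCODE lists 20 transcripts of Espn, which these values per gene do not separate.

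Pls3 encodes plastin 3 (T-plastin), a calcium-sensitive actin bundler, on chromosome X (75785654 to 75875182, minus strand). It had 438, 459.9 and 466 FPKM in busulfan libraries, against 364, 293 and 304 FPKM in DMSO libraries. The groups did not overlap, although DMSO library 1 stood above the other DMSO libraries. Pls3 rose to 455 ± 14.7 FPKM in busulfan libraries, against 320.3 ± 38.5 FPKM in DMSO libraries, 1.42-fold (log2 change 0.51, SE 0.083, 95% interval 0.32 to 0.70, limma adjusted p = 0.0016).

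Pls1, the plastin of intestinal brush borders and hair cell stereocilia, lies on chromosome 9 (95752642 to 95845311, minus strand). It had 0.387, 0.478 and 0.357 FPKM in busulfan libraries, against 0.395, 0.569 and 0.264 FPKM in DMSO libraries, or about 15 to 23 fragments per busulfan library and 13 to 28 per DMSO library. Vil1, which encodes villin, the bundler and severing protein of intestinal microvilli, lies on chromosome 1 (74409376 to 74435559, plus strand). It had 0.682, 0.847 and 0.399 FPKM in busulfan libraries, against 0.736, 0.755 and 0.559 FPKM in DMSO libraries. Both genes overlapped between the groups. In a fit without the filter on level, their log2 changes were 0.00 for Pls1 (95% interval -0.21 to 0.21, limma adjusted p = 0.988) and -0.04 for Vil1 (-0.31 to 0.23, adjusted p = 0.812).

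Myo1a, the class I myosin that links the actin core of intestinal microvilli to the membrane, lies on chromosome 10 (127705170 to 127720940, plus strand). It was listed at 0, 0.0230 and 0 FPKM in busulfan libraries and at 0.0487, 0 and 0 FPKM in DMSO libraries. At this depth the values above 0 correspond to about 1 fragment in busulfan library 2 and 2 fragments in DMSO library 1. A library with no fragment allows about 3.69 fragments at the upper end of an exact 95% Poisson interval, which covers counting error only, so a difference was not detectable here. The villin, plastin 1 and myosin 1a set that is known from the intestinal brush border was therefore under 1 FPKM in every library of both groups.

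The 4 bundlers Espn, Pls3, Pls1 and Vil1 summed to 517, 532 and 539.8 FPKM in busulfan libraries, against 406, 331 and 338 FPKM in DMSO libraries. Pls3 made up 85.9% ± 0.927 of the sum in busulfan libraries and 89.4% ± 0.923 in DMSO libraries, and Espn 13.9% ± 0.922 in busulfan libraries and 10.3% ± 0.842 in DMSO libraries. The sum and the shares leave out other bundlers, so they describe these 4 genes only. Lcp1, a plastin outside this set, had 142 FPKM in busulfan libraries and 197 FPKM in DMSO libraries. The ratio of the bundler sum to the ERM sum was 2.07, 2.18 and 2.18 in busulfan libraries, against 1.08, 0.823 and 0.836 in DMSO libraries. It did not overlap between the groups and, chosen after the values were seen, was not tested. The ratio of Pls3 to Pls1 was 1135 ± 173 in busulfan libraries and 864 ± 324 in DMSO libraries. It overlapped on the linear scale, and its log2 difference with 1 added to each level was 0.51 (exact permutation p = 0.1, adjusted 0.133), a value set mostly by Pls3 since Pls1 is low.

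Clear and narrow cells are the proton-secreting cells of the epididymal duct. Of 6 of their markers tested, 3 were higher, 1 lower and 2 not called in busulfan libraries (median log2 change 0.32). Their summed level was 516 to 552 FPKM in busulfan libraries and 261 to 304 FPKM in DMSO libraries. The gap between these sums was set mostly by 1 gene, the ammonia channel gene Rhcg. Rhcg had 397 ± 16.0 FPKM in busulfan libraries and 170.1 ± 17.4 FPKM in DMSO libraries. The clear cell factor Foxi1 had 65.9 ± 2.36 FPKM in busulfan libraries and 33.0 ± 3.59 FPKM in DMSO libraries. Atp6v0d2, a proton pump subunit, was the lower one, with 33.4 ± 0.860 FPKM in busulfan libraries and 51.3 ± 0.921 FPKM in DMSO libraries. Epithelial markers did not all move this way, since Epcam was lower, as given above. The part of these cells in the changes of Espn and Pls3 was not tested, nor was that of basal and ciliated cells, whose markers are counted below.

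**Figure D3:**
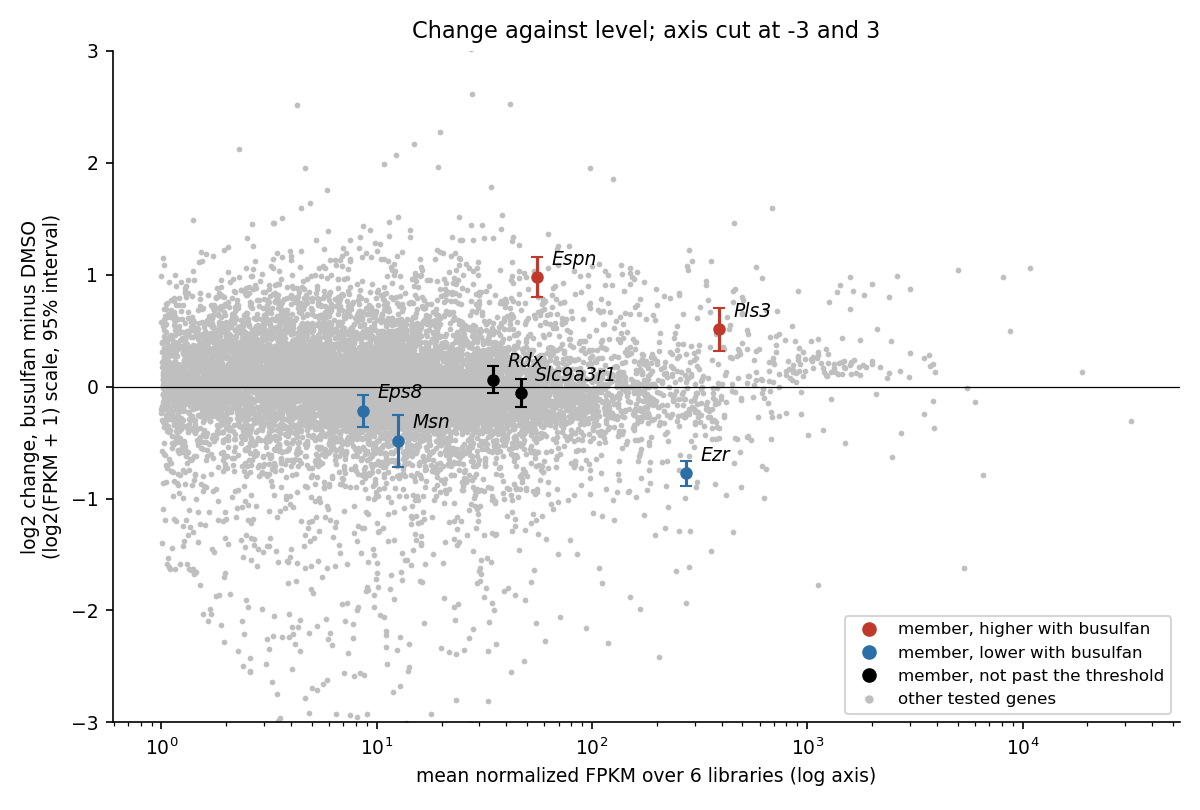
Log2 change (busulfan minus DMSO, log2(FPKM + 1)) against mean FPKM over the 6 libraries (log axis) for the 12848 tested genes in grey; 77 lie outside the plotted range. The 7 tested stereocilia and microvillus genes are labelled, in red if higher, blue if lower and black if not past the test, with 95% intervals as whiskers. Espn (0.98) and Pls3 (0.51) lie above the cloud's centre, Ezr (-0.77) and Msn (-0.48) below it.

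Other bundlers and crosslinkers of actin showed no common direction, with 2 higher, 3 lower and 4 not called of 9 tested (median log2 change 0.01). At equal library totals 3 were higher and 1 lower, and after quantile normalization 2 were higher and 2 lower. Lcp1, a plastin known from leukocytes, fell in busulfan libraries, while its paralog Pls3 rose. Lcp1 had 142 ± 2.37 FPKM in busulfan libraries, against 197 ± 8.28 FPKM in DMSO libraries (log2 change -0.46, limma adjusted p = 0.00016). Summed leukocyte markers, as given above, had 93.6 to 126 FPKM in busulfan libraries and 108 to 118 FPKM in DMSO libraries. Which cells held Lcp1 was not tested. Flna, which encodes the crosslinker filamin A, was among the higher ones, with 79.8 ± 9.17 FPKM in busulfan libraries and 67.0 ± 3.47 FPKM in DMSO libraries. The calls of higher genes were fragile, since 0 genes of the list were higher without busulfan replicate 1, busulfan replicate 2 or DMSO replicate 3. The bundler Fscn1 (fascin), with 2.53 ± 0.365 FPKM in busulfan libraries and 3.81 ± 0.709 FPKM in DMSO libraries, also lost its call under 6 alternatives, among them equal library totals (adjusted p = 0.0930).

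In the villin and gelsolin family, apart from Vil1, 1 gene was higher, 2 lower and 3 not called of 6 tested (median log2 change -0.16), while quantile normalization and equal library totals each gave 2 higher and 2 lower. Capg, which caps the growing ends of actin filaments, had 35.2, 32.4 and 34.8 FPKM in busulfan libraries, against 282, 304 and 313 FPKM in DMSO libraries. Every busulfan library lay far below every DMSO library, and Capg fell to 34.2 ± 1.502 FPKM, against 299.8 ± 15.9 FPKM in DMSO libraries, 8.78-fold lower (log2 change -3.10, limma adjusted p = 7.41e-09). Vill, which encodes villin-like, rose to 8.65 ± 0.853 FPKM in busulfan libraries, against 4.71 ± 0.115 FPKM in DMSO libraries. Svil, which encodes the membrane-linked supervillin, fell to 17.0 ± 1.55 FPKM in busulfan libraries, against 22.9 ± 1.02 FPKM in DMSO libraries. Without busulfan replicate 3 the list had 2 genes higher.

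Of 10 tested myosins of microvilli and stereocilia, 3 were higher, 5 lower and 2 not called (median log2 change -0.10), with 4 higher and 4 lower at equal library totals. Myo7b, the motor of the adhesion complex between brush border microvilli, had 1.23, 0.727 and 0.390 FPKM in busulfan libraries, against 7.65, 9.21 and 7.17 FPKM in DMSO libraries. It fell without overlap (log2 change -2.36, SE 0.17, limma adjusted p = 2.08e-05). Its paralog Myo7a fell to 1.15 ± 0.234 FPKM in busulfan libraries, against 3.91 ± 0.351 FPKM in DMSO libraries. Myo5b, which moves recycling vesicles to the apical membrane, fell to 33.2 ± 1.14 FPKM in busulfan libraries, against 77.1 ± 4.80 FPKM in DMSO libraries. Myo3b, a motor known to carry espin to stereocilium tips, fell to 21.1 ± 2.28 FPKM in busulfan libraries, against 36.9 ± 1.57 FPKM in DMSO libraries, while Espn rose.

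Among the 3 myosins that rose were Myo1d and Myo6, named after their values were seen. Myo6, the motor at the base of stereocilia and microvilli, had 50.4 ± 1.43 FPKM in busulfan libraries and 36.4 ± 0.788 FPKM in DMSO libraries. Myo1d, a class I myosin, had 14.2 ± 0.478 FPKM in busulfan libraries and 11.7 ± 0.479 FPKM in DMSO libraries.

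Of 14 genes for the links between neighbouring stereocilia or microvilli, 5 were tested, 2 were higher, 2 lower and 1 not called (median log2 change 0.15), with 2 higher and 0 lower at equal library totals. Cdhr5 and Cdhr2, the protocadherins that join the tips of brush border microvilli, were the higher ones. Cdhr5 rose to 20.4 ± 1.79 FPKM in busulfan libraries, against 10.5 ± 0.748 FPKM in DMSO libraries (log2 change 0.89, limma adjusted p = 6.01e-05), and Cdhr2 to 1.81 ± 0.183 FPKM in busulfan libraries, against 0.697 ± 0.0710 FPKM in DMSO libraries. Cib2 had 11.9 ± 1.30 FPKM in busulfan libraries and 15.5 ± 0.915 FPKM in DMSO libraries, and Whrn 4.94 ± 0.262 FPKM in busulfan libraries and 6.43 ± 0.620 FPKM in DMSO libraries. Both fell, but both lost the call at equal library totals (adjusted p = 0.0607 for Cib2 and 0.115 for Whrn), and Whrn also without busulfan replicate 2, DMSO replicate 1 or DMSO replicate 2. Of the 14 genes, 7 were under 0.1 FPKM in every library, among them the inner ear link genes Cdh23, Pcdh15, Clrn1, Adgrv1 and Ush1g. They were named after their values were seen. Transcripts of these hair cell link genes were thus at or near 0 in this tissue, whose stereocilia are long microvilli.

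Among genes of the stereocilium base and of protrusion membranes, 3 were higher, 3 lower and 4 not called of 10 tested (median log2 change -0.03), with 5 higher and 1 lower at equal library totals. Prom2 and Prom1 encode prominins, cholesterol-binding proteins of microvillar membrane. Prom2 had 376, 361 and 389 FPKM in busulfan libraries, against 204, 182 and 162 FPKM in DMSO libraries, without overlap (log2 change 1.04, SE 0.082, limma adjusted p = 3.26e-05). Prom1 rose to 181 ± 4.21 FPKM in busulfan libraries, against 99.9 ± 9.14 FPKM in DMSO libraries. Clic5, with 1.05 ± 0.206 FPKM in busulfan libraries and 1.92 ± 0.411 FPKM in DMSO libraries, and Cobl, with 1.53 ± 0.436 FPKM in busulfan libraries and 0.812 ± 0.247 FPKM in DMSO libraries, lost their calls under several alternatives. Grxcr1, Grxcr2 and Strc, hair cell genes named after their values were seen, were listed at 0 in all 6 libraries.

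The terminal web is the mesh of spectrin, myosin II and keratin into which microvilli root. Of 12 tested genes, 3 were higher, 5 lower and 4 not called (median log2 change -0.02), whereas quantile normalization and equal library totals each gave 4 higher and 2 lower. Krt19, a keratin of simple epithelia, rose to 276 ± 11.5 FPKM in busulfan libraries, against 157 ± 6.44 FPKM in DMSO libraries. The keratins Krt8 and Krt18, named after their values were seen, were among the 5 lower genes. Krt8 had 216 FPKM in busulfan libraries and 256 FPKM in DMSO libraries. Krt18 had 294 FPKM in busulfan libraries and 351 FPKM in DMSO libraries. Nonmuscle myosin II moved both ways. Myh14 rose to 5.65 ± 0.562 FPKM in busulfan libraries, against 2.84 ± 0.273 FPKM in DMSO libraries, and Myh9 fell to 33.7 ± 2.34 FPKM in busulfan libraries, against 55.5 ± 2.11 FPKM in DMSO libraries. Sptan1, the alpha chain of nonerythroid spectrin, fell to 19.3 ± 0.729 FPKM in busulfan libraries, against 29.7 ± 0.902 FPKM in DMSO libraries.

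Of 19 genes for actin and its turnover, 2 were higher, 7 lower and 10 not called (median log2 change -0.13), a balance that turned to 7 higher and 4 lower at equal library totals and to 8 higher and 5 lower after quantile normalization. Among the Arp2/3 subunits, which nucleate branched filaments, Arpc1b fell to 82.5 ± 1.97 FPKM in busulfan libraries, against 168 ± 13.2 FPKM in DMSO libraries, and Arpc2 to 189.8 ± 5.91 FPKM in busulfan libraries, against 318 ± 4.65 FPKM in DMSO libraries. Of the other subunits in the list, named after their values were seen, Actr2 (log2 change -0.30) and Actr3 (-0.15) were lower. Arpc3 (-0.11) and Arpc4 (-0.07) did not pass the test. Pfn1 (profilin) fell to 339 ± 8.49 FPKM in busulfan libraries, against 438 ± 18.4 FPKM in DMSO libraries. Enah, which promotes filament elongation, rose to 16.7 ± 0.791 FPKM in busulfan libraries, against 9.91 ± 0.686 FPKM in DMSO libraries. The nonmuscle actins, which are outside the rule and were named with their values known, did not pass the test, with 531 ± 17.2 FPKM in busulfan libraries and 519 ± 2.59 FPKM in DMSO libraries for Actb and 856 ± 26.6 FPKM in busulfan libraries and 812 ± 16.6 FPKM in DMSO libraries for Actg1. Without busulfan replicate 1, busulfan replicate 2, DMSO replicate 2 or DMSO replicate 3 the list had 1 gene higher.

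A further list held mostly apical membrane proteins of principal cells, together with the adhesion genes Cdh1 and Epcam, whose proteins are not apical. Of 12 tested genes, 6 were higher, 5 lower and 1 not called (median log2 change 0.47), with 7 higher and 3 lower at equal library totals and 6 higher and 3 lower after quantile normalization. Cdh1 (log2 change -0.23) and Epcam (-0.16), named after their values were seen, were among the 5 lower genes, so the lower apical genes were Cftr, Aqp9 and Mme. Besides Cftr, the water and glycerol channel Aqp9 fell, with 14.2, 19.7 and 26.7 FPKM in busulfan libraries, against 49.3, 49.3 and 53.1 FPKM in DMSO libraries. The membrane peptidase Mme (neprilysin) fell to 5.55 ± 0.143 FPKM in busulfan libraries, against 15.0 ± 0.568 FPKM in DMSO libraries, and Ace (angiotensin-converting enzyme) rose to 399 ± 51.5 FPKM in busulfan libraries, against 183 ± 33.4 FPKM in DMSO libraries. Apical genes of these cells thus changed in both directions.

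**Figure D4:**
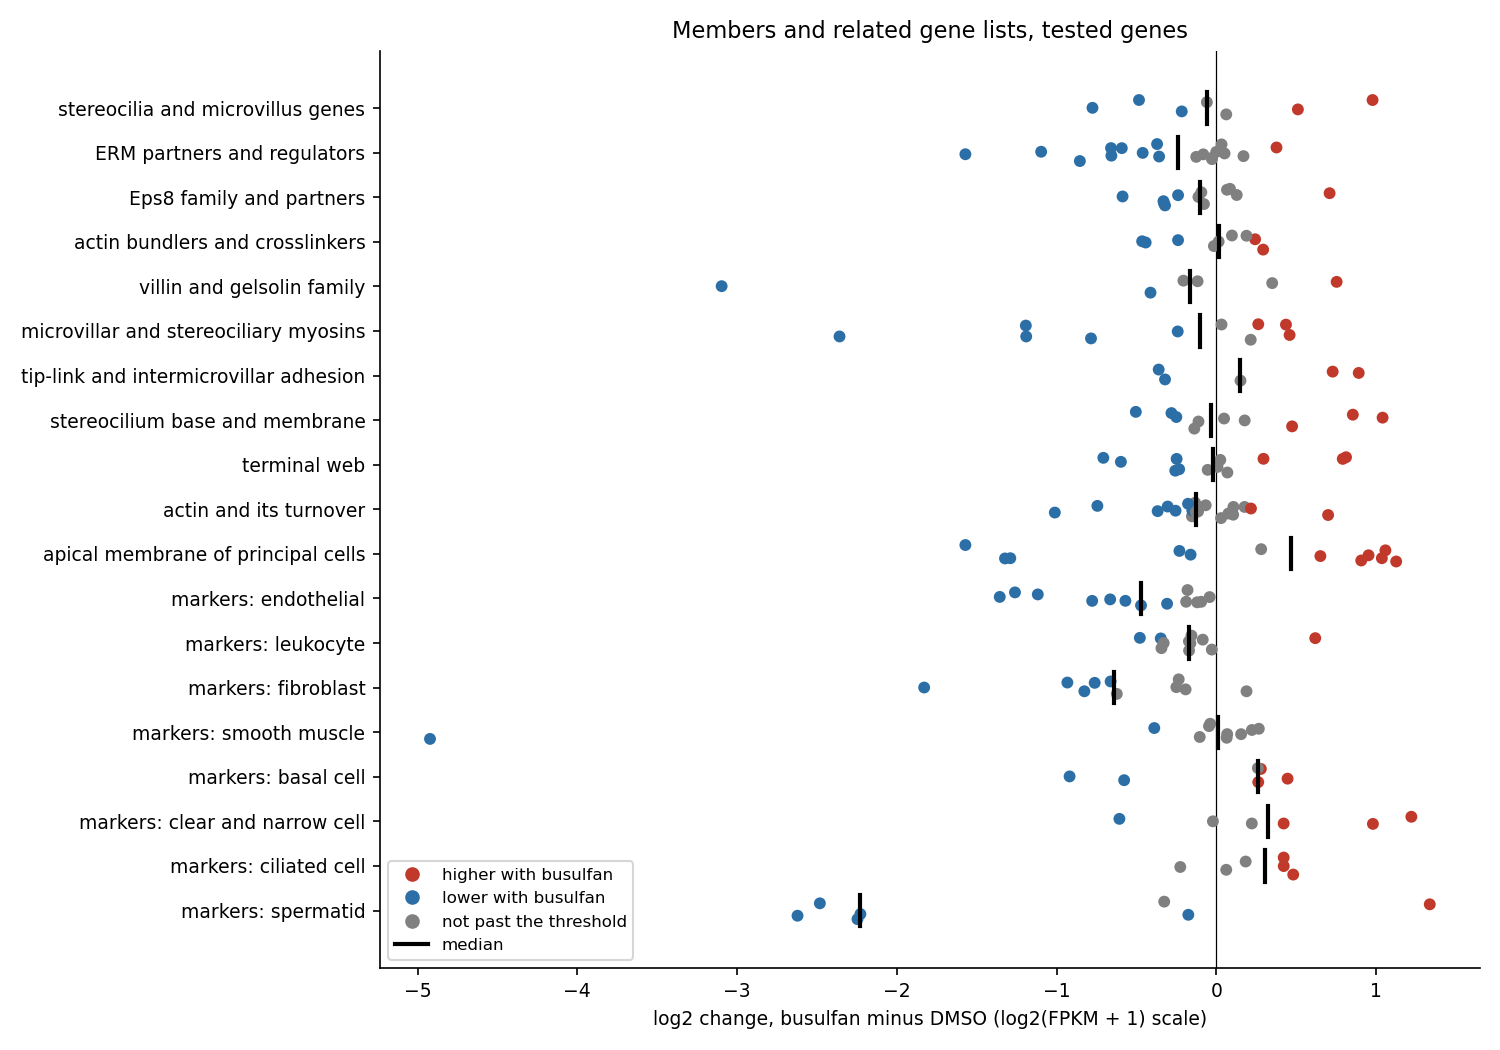
Log2 change (busulfan minus DMSO, log2(FPKM + 1)) of each tested gene in the stereocilia and microvillus set and the gene lists, 1 line per list, with genes higher in busulfan libraries in red, lower in blue and not called in grey, and a black bar at the list's median. The ERM partners have 1 gene higher and 9 lower of 18, and the list labelled apical membrane has 6 higher and 5 lower of 12, where the lower ones include the adhesion genes Cdh1 and Epcam.

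Other cell type markers gave these counts. Fibroblast markers were 0 higher and 5 lower of 10 tested (median log2 change -0.64), with sums of 225 to 331 FPKM in busulfan libraries and 385 to 483 FPKM in DMSO libraries. Smooth muscle markers were 0 higher and 2 lower of 10 (4 higher and 1 lower at equal library totals, 4 higher without busulfan replicate 3), with sums of 563 to 674 FPKM in busulfan libraries and 1977 to 2127 FPKM in DMSO libraries, a gap set mostly by Actg2 at 46.8 ± 6.003 FPKM in busulfan libraries and 1443 ± 110.2 FPKM in DMSO libraries. Basal cell markers were 3 higher and 2 lower of 6, ciliated cell markers 3 higher and 0 lower of 6, and spermatid markers 1 higher and 5 lower of 7. Basal cell markers summed to 179.7 to 201 FPKM in busulfan libraries and 165 to 179 FPKM in DMSO libraries, ciliated cell markers to 36.8 to 42.3 FPKM in busulfan libraries and 29.4 to 34.1 FPKM in DMSO libraries, and spermatid markers to 35.3 to 62.8 FPKM in busulfan libraries and 63.8 to 81.4 FPKM in DMSO libraries. Their part in the changes of the 10 genes was not tested.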

How the data were processed

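For 6 libraries made with a stranded mRNA kit, per the labels' protocols, the authors deposited gene levels in FPKM, which the table calls normalized per the file headers. The submitters' processing notes name TopHat2 2.1.1, Cufflinks 2.2.1 and mm10. How libraries were normalized to each other, the annotation and the strand setting of the counting: not given in the sources used here. Since FPKM are not counts, levels were compared as log2(FPKM + 1) in limma 3.58.1 (trended variance, R 4.3.3) for all genes averaging 1 FPKM or more, with Benjamini-Hochberg adjustment over all genes tested and a threshold of 0.05. Log2 changes (busulfan minus DMSO) on that scale understate changes of low genes. Ratios within a library were compared by an exact permutation test over the 20 possible assignments of the libraries (SciPy 1.17.1, Python 3.11.15). Depth was inferred as the FPKM of 1 fragment in single-transcript genes of over 3000 bases under 0.3 FPKM. It carries the authors' normalization, so it is rough. Gene positions came from GENCODE M21 (GRCm38) and promoters from RefSeq, by symbol. Figures were drawn with matplotlib 3.10.9.

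The members and the gene lists were chosen with earlier results of these data known. The rule for naming genes took all 10 members and, from each list, up to 4 others past the threshold with the largest absolute log2 change. Alternatives were a pseudocount of 0.1, no filter, a mean of at least 5 FPKM, quantile normalization, equal library totals, median-of-ratios scaling, the replicate number as a block, and leaving out each library in turn.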

Additional observations from a re-analysis of the deposited data

How the results depend on the processing

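Ezr, Espn, Pls3 and Msn kept their direction and passed the threshold of 0.05 under all 13 alternatives. The log2 change of Ezr ran from -0.81 to -0.62 (limma adjusted p 7.01e-06 to 0.000372), of Espn from 0.90 to 1.13 (9.86e-06 to 0.000324), of Pls3 from 0.45 to 0.67 (8.74e-05 to 0.00902) and of Msn from -0.57 to -0.34 (0.00351 to 0.0410). Eps8 and Rdx changed their call as given in the report. Slc9a3r1 changed sign to 0.054 (adjusted p 0.501) after quantile normalization and to 0.097 (adjusted p 0.245) at equal library totals. The 7 tested genes were 3 higher and 3 lower after quantile normalization, 3 higher and 2 lower at equal library totals, and 2 higher and 2 or 3 lower with a library left out. The 4 ratio differences kept their sign with a pseudocount of 0.1 and with each library left out. Over all tested genes, equal library totals gave 4584 higher and 1588 lower, the scaling itself moving the median gene. No pairing by replicate number was seen. Deviations of same-numbered samples correlated at -0.18, -0.025 and -0.18, and no busulfan sample correlated best with its own number. With 3 samples per group, these correlations cannot exclude a pairing. With a replicate block, 2204 genes were higher and 2423 lower, and the members' counts were 2 higher and 3 lower. Of 66 genes that the naming rule took from the lists, 51 kept their call under every alternative, 15 lost it under at least 1, and 0 reversed. Not all of the 66 appear in the report, and genes named after their values were seen are outside this count. Of 468 list counts under an alternative, 53 moved by over 1.5 times, 15 of them at equal library totals, 5 after quantile normalization, 5 at a mean of at least 5 FPKM, and 2 each without the filter and with the replicate block. The leukocyte list had 0 genes lower without busulfan replicate 3 and 1 without busulfan replicate 2 or any DMSO library. The fibroblast list had 1 gene higher without busulfan replicate 3, the ciliated list 1 higher without busulfan replicate 2, and the spermatid list 3 lower without DMSO replicate 2. Vil1, Pls1 and Myo1a rest on at most 34 fragments per library, so small changes in them were not detectable.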
